A study of Mus musculus with 7 samples.

Results

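Genes of the actin cytoskeleton, the contractile apparatus and cell adhesion were examined in mouse embryonic stem cells with reduced Mettl3. The set holds 37 genes of the 16353 genes tested, and all 37 passed the filter on dim probe sets. The members were selected on measured values as well as on function, since higher Acta2, Tagln and Parva in cells with Mettl3 hairpins had already been seen in these arrays. Differences from luciferase, and the counts of members past a threshold in them, are therefore a description and not independent evidence of a change in these genes.

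The samples were J-1 cells, an established line of mouse embryonic stem cells, infected with lentiviruses carrying a short hairpin RNA and grown in medium that the labels call full. A hairpin against luciferase, a gene that mouse cells lack, was the control (3 samples). Mettl3 hairpin 1 and Mettl3 hairpin 2 were used in 2 samples each, so all groups share the infection and no uninfected sample was analysed here. No source used here gives the time after infection, any drug selection, or whether replicates were grown as separate cultures, so the spread between samples may be technical. METTL3 is the enzyme that methylates adenosines of RNA to N6-methyladenosine (m6A), and the question was how transcript levels differ when it is reduced. Neither METTL3 protein nor RNA methylation was analysed here.

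Total RNA was read on 1 exon array per sample, with several probe sets per gene, and a gene value is the median of its probe sets on a log2 scale, on which a step of 1 is a doubling. A gene was called where its Benjamini-Hochberg adjusted p in limma, over all 16353 genes, was below 0.05. Mettl3 checked the labels, with 10.14 to 10.46 in the luciferase arrays and 8.66 to 8.97 in the 4 hairpin arrays. Principal component 1 of all gene values separated luciferase from the hairpins, and component 2 separated luciferase replicate 3 with hairpin 1 replicate 2 (-10.4 and -17.8) from the remaining arrays, across the groups. Embryonic stem cell markers were in place, with luciferase means of 12.70 for Pou5f1 and 13.14 for Nanog, and none of the 8 was called in the comparison of both hairpins with luciferase, nor had any an unadjusted p below 0.05 there in limma. The number of arrays limits the precision.

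Actin monomers assemble into filaments, which myosin II pulls on and which crosslinking proteins such as alpha-actinin and filamin bundle. Focal adhesions tie the filaments to integrins and so to the matrix outside the cell. Many of these genes are known targets of serum response factor (SRF), which binds a short DNA element called the CArG box. Its coactivators MRTF-A and MRTF-B are held by free actin monomers, so filament assembly and transcription of actin genes are linked. Acta2, Tagln and Cnn1 are best known from smooth muscle.

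Of the 37 members, 12 rose and 0 fell in the mean of both hairpins against luciferase. Over all genes tested, 5.53% were called higher and 2.37% lower in the same comparison. These shares are set beside the counts only as background, because the comparison was used in choosing the members. The median log2 difference was 0.11 over the members and 0.00 over all genes. At an unadjusted p below 0.05 in limma, 16 members were higher and 0 lower, as were 2372 and 1586 of all 16353 genes. Without a filter on dim probe sets 7 of the 12 were called, and Tagln, Tes, Myl9, Cnn2 and Ccn1 were not. Calls in either direction over all genes were 2.42% there and 7.9% with the filter. The members that rose were Acta2, Lima1, Fhl1, Parva, Tagln, Cnn1, Tes, Myl9, Cnn2, Msn, Vcl and Ccn1, in order of size. In 16 members all 4 hairpin arrays lay above all 3 luciferase arrays, as they did in 13.4% of all genes. These were the 12 called members with Srf, Actn1, Myh10 and Myh9. In 1 member, Actn4, all hairpin arrays lay below the luciferase arrays, against 8.4% of all genes. Each array holds RNA of many cells, so more cells of a type and more RNA per cell cannot be told apart.

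**Figure D1:**
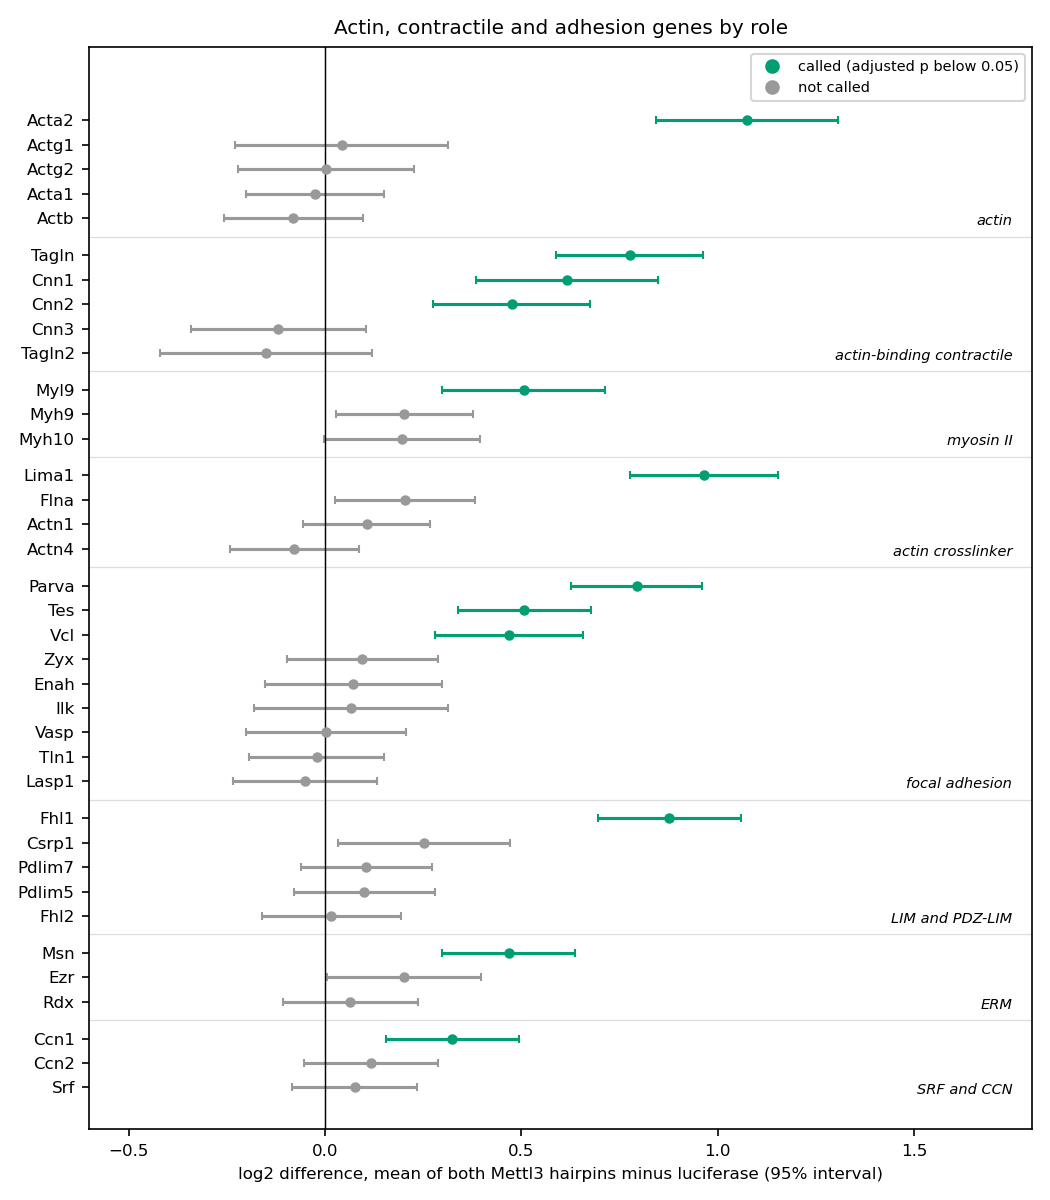
Log2 difference of the mean of both Mettl3 hairpins minus luciferase for each of the 37 members, grouped by role, with bars for the 95% interval of the limma fit. The 12 called members lie between 0.32 (Ccn1) and 1.07 (Acta2), with called and uncalled members in every role.

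The promoters of the members were searched for the CArG box, here CC, then 6 bases that are each A or T, then GG, a pattern that reads the same on both strands. Promoter windows came from RefSeq on build GRCm38.p6 and ran from 250 bases before to 50 bases after each start site. A window was found for 32 of the 37 members, and none was matched for Actb, Actg2, Ccn2, Parva or Tagln. The box was in 9 of these 32 genes, and in 1.81% of all 27025 genes with a window. It was in 10 of the 38 windows of members (26.32%) and in 1.63% of all 32851 windows. Of the 10 called members with a window 5 held it (Cnn2, Fhl1, Lima1, Myl9 and Vcl), as did 4 of the 22 that were not called (Acta1, Actg1, Fhl2 and Srf). Acta2, Cnn1, Tes, Msn and Ccn1 were called and had a window without a match. Boxes with another base among the 6, or outside the window, were not searched for, so a missing match does not show that a gene lacks the element. Many of the members are known SRF targets, so the list is rich in the box through its choice, and a match is a description, not a bound site. Fhl1 held it in 1 of its 2 windows, Fhl2 in both windows, and Srf held 2 boxes in 1 window.

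The promoter stretches of the 5 called members with a box are printed because they show the element beside genes that rose, and those of Srf and Actg1 because they carry it beside genes that were not called. Each stretch reads 5′ to 3′ on the strand of the gene and ends at or before its start site, with the CArG box in capitals. Lima1 is from chr15:99820150-99820241 on the minus strand and Fhl1 from chrX:56779536-56779635 on the plus strand. Myl9 is from chr2:156775258-156775357, Cnn2 from chr10:79988499-79988598 and Vcl from chr14:20929148-20929225, each on the plus strand. Srf is from chr17:46556170-46556269 and Actg1 from chr11:120348531-120348630, both on the minus strand.
Lima1: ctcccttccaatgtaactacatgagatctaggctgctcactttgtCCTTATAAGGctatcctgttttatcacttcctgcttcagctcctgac
Fhl1: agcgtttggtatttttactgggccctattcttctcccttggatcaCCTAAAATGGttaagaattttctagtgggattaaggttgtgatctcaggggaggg
Myl9: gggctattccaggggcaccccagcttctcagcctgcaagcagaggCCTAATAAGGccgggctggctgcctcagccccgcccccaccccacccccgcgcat
Cnn2: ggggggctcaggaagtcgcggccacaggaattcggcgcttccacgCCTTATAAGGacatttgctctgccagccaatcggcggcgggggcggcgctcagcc
Vcl: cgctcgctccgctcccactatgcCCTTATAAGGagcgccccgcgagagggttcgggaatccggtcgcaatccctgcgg
Srf: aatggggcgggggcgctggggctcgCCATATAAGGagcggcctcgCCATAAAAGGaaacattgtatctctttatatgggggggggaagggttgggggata
Actg1: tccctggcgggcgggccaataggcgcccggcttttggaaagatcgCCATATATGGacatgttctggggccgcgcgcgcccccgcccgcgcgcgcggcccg
The first base of the box lay 47 bases upstream of the start in Lima1, 102 in Fhl1, 161 in Myl9, 56 in Cnn2 and 227 in Vcl. In Srf the boxes began 82 and 62 bases upstream, and in Actg1 the box began 90 bases upstream.

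Among the 5 actins, 1 was called. Acta2 encodes smooth muscle alpha-actin. Its luciferase arrays read 6.65, 6.94 and 6.94, its hairpin 1 arrays 8.31 and 8.14, and its hairpin 2 arrays 7.72 and 7.50. Every hairpin array was above every luciferase array, and both hairpin 1 arrays were above both hairpin 2 arrays. The difference of the mean of both hairpins was 1.07 ± 0.103 (SE, 95% interval 0.84 to 1.30), a 2.10-fold rise. All 8 of its kept probe sets were above 0, from 0.04 to 2.45. With a stricter filter on dim probe sets its hairpin 1 difference was 0.80 in place of 1.38.

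The other actins were not called. Actb encodes the cytoplasmic beta-actin that is often used as a reference gene. Its arrays read 13.55, 13.71 and 13.55 with luciferase, 13.54 and 13.46 with hairpin 1 and 13.53 and 13.56 with hairpin 2, so the groups overlapped. The difference was -0.08 (95% interval -0.26 to 0.10). Actg1, the cytoplasmic gamma-actin, read 12.61, 12.79 and 12.30 with luciferase, 12.42 and 12.64 with hairpin 1 and 12.79 and 12.59 with hairpin 2. Its groups overlapped too, with a difference of 0.04 (95% interval -0.23 to 0.31). Actg2, the smooth muscle gamma-actin, had a difference of 0.00, and Acta1, the skeletal muscle actin, one of -0.03. Actin coding sequences are nearly identical, so probe sets in shared exons can read more than 1 actin, and how far this affects each value was not tested.

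Of the 5 actin-binding contractile proteins, 3 rose. Tagln encodes transgelin (SM22), which binds and stabilises actin filaments. It read 6.98, 7.01 and 7.03 with luciferase, 8.31 and 8.08 with hairpin 1, and 7.43 and 7.31 with hairpin 2. No hairpin array fell within the luciferase range, and the hairpin 2 arrays stood between the other groups. The difference was 0.78 ± 0.0838 (SE, 95% interval 0.59 to 0.96). Cnn1, the smooth muscle calponin, read 7.16, 7.01 and 6.91 with luciferase, 8.0 and 7.67 with hairpin 1, and 7.53 and 7.37 with hairpin 2. The groups did not overlap, and the difference was 0.62 ± 0.104 (SE), or 0.37 where probe sets were combined by median polish. Cnn2, the calponin of many non-muscle cells, rose by 0.48, from 9.94 to 10.02 with luciferase to 10.27 to 10.57 with the hairpins. Without luciferase replicate 1, Cnn2 was at 0.47 and not called. Tagln2 and Cnn3, relatives with broad expression, were not called, with differences of -0.15 and -0.12. All 7 kept probe sets of Tagln2 were below 0.

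Of the 3 myosin II genes, 1 rose. Myl9 encodes a regulatory light chain, whose phosphorylation switches on contraction. It read 7.99, 8.21 and 8.26 with luciferase, 8.38 and 8.50 with hairpin 1, and 8.80 and 8.97 with hairpin 2. Every hairpin array was above the luciferase arrays, with hairpin 2 highest. The difference was 0.51 ± 0.0935 (SE), and 0.81 by median polish. Without luciferase replicate 1 it was 0.42 and not called. The non-muscle heavy chains Myh9 and Myh10 had differences of 0.20 each and were not called, although Myh10 was called where probe sets were averaged (0.24) or median polished (0.25).

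Of the 4 actin crosslinkers, 1 rose. Lima1 encodes EPLIN, which bundles filaments and slows their turnover. It read 9.37, 9.40 and 9.22 with luciferase, 10.26 and 10.39 with hairpin 1, and 10.21 and 10.33 with hairpin 2. All hairpin arrays lay in a narrow band above the luciferase arrays, and the difference was 0.97 ± 0.0845 (SE, 95% interval 0.78 to 1.15). The alpha-actinins Actn1 and Actn4 had differences of 0.11 and -0.08. Actn4 was 13.17 to 13.21 with luciferase and 13.02 to 13.15 with the hairpins, and 25 of its 26 kept probe sets were below 0, by small amounts. The filamin Flna, a large crosslinker, was not called at 0.20 but was called where probe sets were averaged (0.22) or median polished (0.21).

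**Figure D2:**
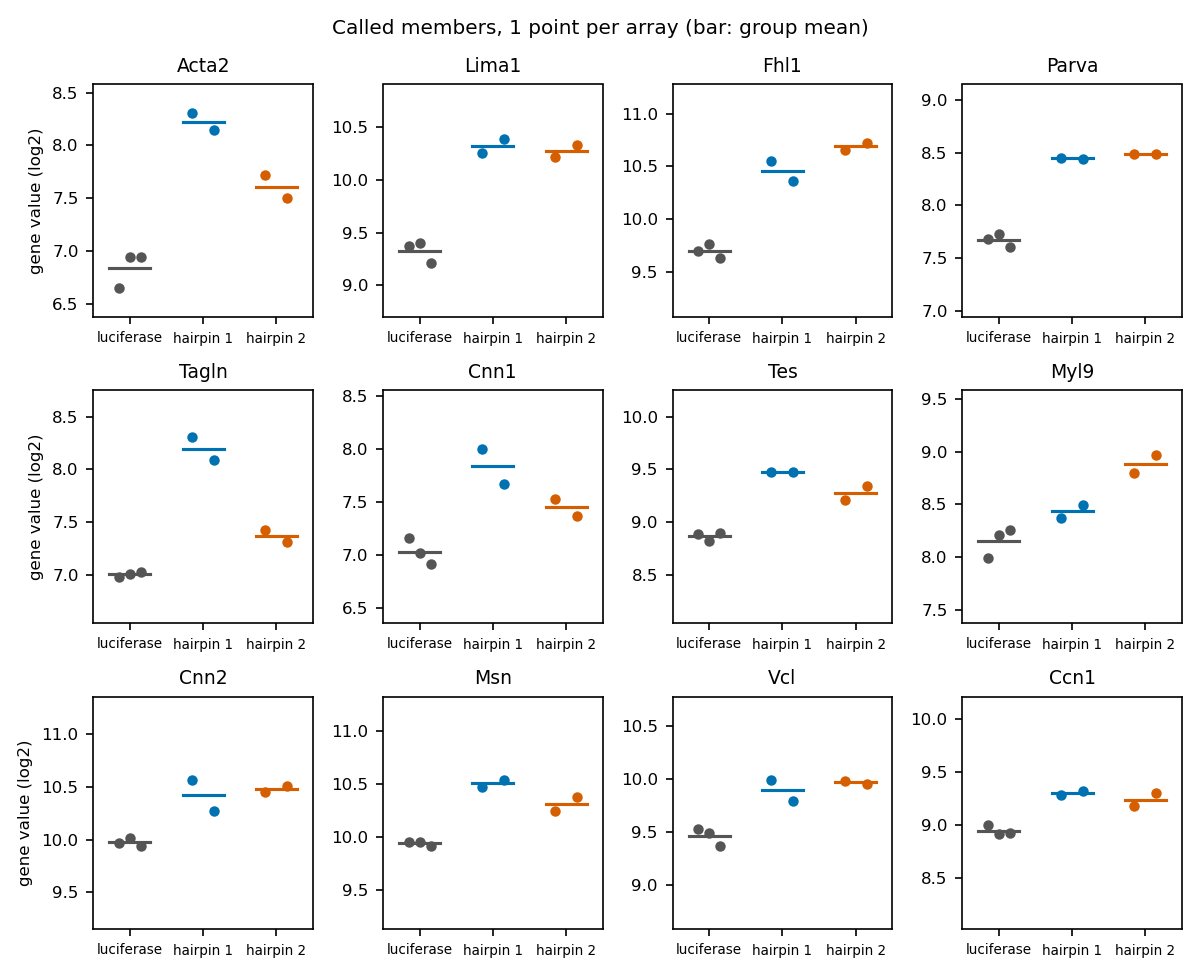
Log2 gene value of each array for the 12 called members, 1 panel per gene with a vertical range of equal length, 1 point per array and a bar for the group mean, with luciferase (3 arrays), hairpin 1 (2 arrays) and hairpin 2 (2 arrays) side by side. In every panel the hairpin arrays lie above the luciferase arrays, and in Tagln, Acta2, Cnn1, Tes and Msn hairpin 2 lies between the other groups.

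Of the 9 focal adhesion genes, 3 rose. Parva encodes alpha-parvin, which joins integrin-linked kinase to actin. It read 7.68, 7.73 and 7.60 with luciferase, 8.45 and 8.44 with hairpin 1, and 8.48 and 8.49 with hairpin 2. The 4 hairpin arrays were nearly equal and all were above the luciferase arrays. The difference was 0.79 ± 0.0747 (SE, 95% interval 0.63 to 0.96), a 1.73-fold rise. Its partner Ilk was not called, at 0.07.

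Tes encodes testin, a LIM domain protein of focal adhesions. It read 8.88, 8.82 and 8.90 with luciferase, 9.48 and 9.47 with hairpin 1, and 9.21 and 9.34 with hairpin 2. The groups did not overlap, and the difference was 0.51 ± 0.0759 (SE). Vcl encodes vinculin, which links talin to actin under tension. It was 9.37 to 9.53 with luciferase and 9.79 to 9.99 with the hairpins, a difference of 0.47. Talin itself (Tln1), zyxin (Zyx) and the filament assembly factors Vasp and Enah were not called, with differences of -0.02, 0.10, 0.00 and 0.07. Lasp1, an actin-binding adaptor, was not called at -0.05.

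Of the 5 LIM and PDZ-LIM proteins, 1 rose. Fhl1 encodes a protein of LIM domains that is abundant in muscle. It read 9.70, 9.76 and 9.63 with luciferase, 10.55 and 10.36 with hairpin 1, and 10.66 and 10.72 with hairpin 2. All hairpin arrays lay above the luciferase arrays, and the difference was 0.88 ± 0.0819 (SE, 95% interval 0.69 to 1.06). With the mean of probe sets its hairpin 1 difference was 0.48 in place of 0.76. Csrp1, which binds alpha-actinin and zyxin, had the highest difference among members not called, at 0.25, next to the lowest among those called, Ccn1 at 0.32. Fhl2 was at 0.02, Pdlim5 at 0.10 and Pdlim7 at 0.10. Pdlim7 was called with a stricter filter on dim probe sets (0.30), with the mean of probe sets (0.25) and with median polish (0.21).

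Of the 3 ezrin, radixin and moesin genes, whose products tie filaments to the plasma membrane, 1 rose. Moesin (Msn) was 9.92 to 9.95 with luciferase, 10.47 and 10.54 with hairpin 1, and 10.24 and 10.37 with hairpin 2. Its difference was 0.47 ± 0.0758 (SE), with all 14 kept probe sets between 0.34 and 0.56. Ezrin (Ezr) and radixin (Rdx) were not called, at 0.20 and 0.06.

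The SRF gene and 2 matrix-associated CCN genes complete the set, and 1 of these 3 rose. Srf read 9.20, 9.21 and 9.19 with luciferase, 9.22 and 9.23 with hairpin 1, and 9.33 and 9.32 with hairpin 2. Its hairpin arrays were above the luciferase arrays by little, and the difference of 0.08 was not called. With a stricter filter on dim probe sets it was 0.30 and called, the same as the highest difference among its 14 kept probe sets, whose median was 0.13. With the mean of probe sets or median polish it was 0.09 and not called. The difference of Srf thus depends on the probe sets kept. Ccn1 (CYR61), a matricellular target of SRF and YAP, was 8.91 to 9.0 with luciferase and 9.18 to 9.32 with the hairpins, a difference of 0.32. Its call was lost when any 1 of the 7 arrays was left out. Ccn2 (CTGF) was not called, at 0.12. Its luciferase arrays read 10.53 to 10.59, its hairpin 1 arrays 10.57 and 10.41, and its hairpin 2 arrays 10.88 and 10.86, so hairpin 2 alone stood above luciferase.

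Exon arrays read each gene at several places, and the kept probe sets of the members that rose mostly pointed one way. In the same comparison 134 of the 143 kept probe sets of called members (93.7%) were above 0, with a median of 0.50. For members not called it was 403 of 559 (72.1%), with a median of 0.11, and over all genes 124332 of 229811 (54.1%), with a median of 0.02. The first share follows in part from the call itself, since a gene value is a median of these probe sets. Both shares of members come from the comparison used in choosing them. The shares pool probe sets, so genes with many of them weigh most. All kept probe sets were above 0 in Acta2, Tagln, Lima1, Myl9, Msn and Vcl. In Cnn1, 7 of 10 were, from -0.13 to 1.11. Of the genes not called, 53 of 55 in Flna, 48 of 50 in Myh10 and 51 of 56 in Myh9 were above 0, against 6 of 15 in Actb and 5 of 21 in Actg1. Probe sets of a gene share its RNA and are not replicates.

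**Figure D3:**
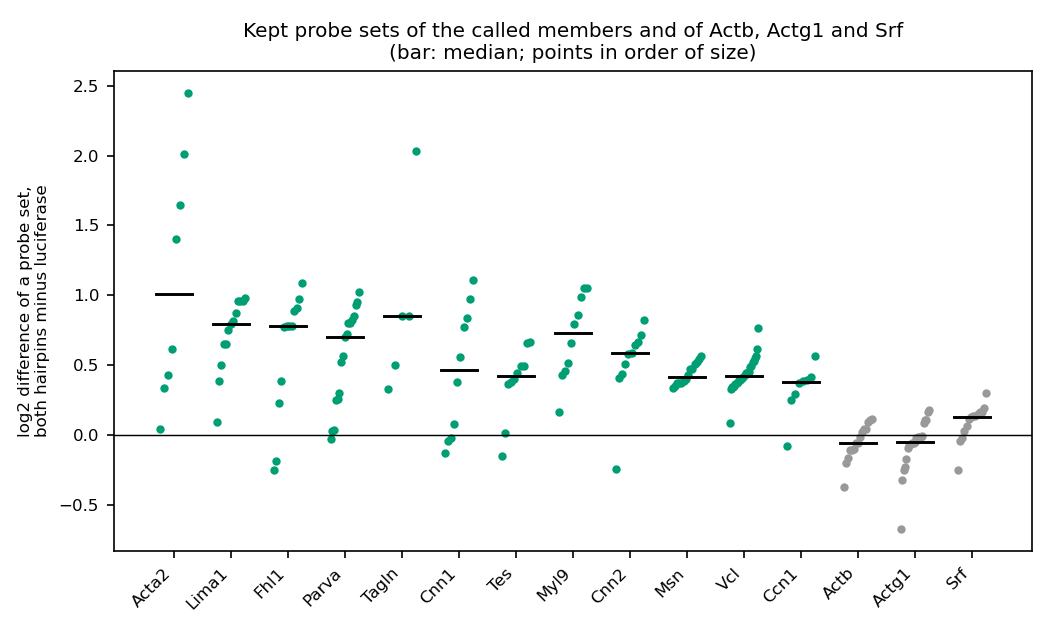
Log2 difference of the mean of both hairpins minus luciferase for every kept probe set of the 12 called members (green) and of Actb, Actg1 and Srf (grey), in order of size within a gene, with a bar for the median. Points of Msn lie between 0.34 and 0.56, whereas those of Acta2 spread from 0.04 to 2.45.

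Each hairpin was then set against luciferase on its own. Both comparisons share the 3 luciferase arrays, so their values are given side by side and no likeness between them is read. With hairpin 1, 10 members rose and 0 fell, where 3.97% of all genes were called higher and 1.93% lower. There 16 members were higher and 0 lower at an unadjusted p below 0.05 in limma, as were 2051 and 1578 of all 16353 genes. The 10 were Acta2, Cnn1, Cnn2, Fhl1, Lima1, Msn, Parva, Tagln, Tes and Vcl. With hairpin 2, 8 members rose and 0 fell, where 2.71% of all genes were called higher and 1.08% lower. There 14 members were higher and 0 lower at an unadjusted p below 0.05 in limma, as were 1930 and 1129 of all 16353 genes. The 8 were Acta2, Cnn2, Fhl1, Lima1, Myl9, Parva, Tes and Vcl. Further members were called higher only in some alternatives, so absence from a list does not set a member to the other hairpin alone. These were Ccn1, Csrp1, Myh10, Myl9 and Pdlim7 with hairpin 1. With hairpin 2 they were Ccn1, Ccn2, Cnn1, Flna, Msn and Tagln.

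Of all genes, 3.79% were called with hairpin 2 in the fit on all arrays, and 1.5%, 2.64% and 2.1% without luciferase replicate 1, 2 and 3. The hairpin 2 count of members depended on single arrays too. It was 5 without luciferase replicate 1, 2 or 3. Leaving out a hairpin 2 array leaves 1 array in that group, so no count is given for those fits. The hairpin 2 call of Acta2 was lost without either hairpin 2 array, and that of Myl9 without hairpin 2 replicate 2. The hairpin 2 call of Tes was lost without any 1 of the 7 arrays. The hairpin 1 call of Cnn1 was lost without hairpin 1 replicate 1, and that of Msn without hairpin 1 replicate 2. The hairpin 1 call of Vcl was lost without any 1 of the 7 arrays, and that of Cnn2 in 6 of these 7 cases. The hairpin 1 calls of Lima1, Fhl1 and Parva, and their hairpin 2 calls, were kept without any single array.

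The hairpins were compared with each other directly, which leaves out the luciferase means. That Tagln stood lower with hairpin 2 than with hairpin 1 was known when the members were chosen. Of the 37 members 1 was called, Tagln, where 0.104% of all genes were called. At an unadjusted p below 0.05 in limma, 4 members were higher with hairpin 1 and 3 lower, as were 647 and 788 of all 16353 genes. Tagln was 1.19 above luciferase with hairpin 1 and 0.36, not called, with hairpin 2. Its hairpin 2 value was called in some alternatives. These were a stricter filter on dim probe sets (0.75), the mean of probe sets (0.76), median polish (0.68) and quantile normalization (0.39). In the fit as reported hairpin 1 exceeded hairpin 2 by 0.83 ± 0.11 (SE, 95% interval 0.58 to 1.07, limma adjusted p = 0.0438). Over its 5 kept probe sets this difference was 0.63, 0.38, -0.48, 0.17 and 0.83, so it was not shared by all of them. The call was lost in 17 of 20 alternatives, among them leaving out any 1 array, and its value was 0.31 with the mean of probe sets and 0.23 without a filter on dim probe sets.

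Acta2 was 1.38 above luciferase with hairpin 1 and 0.77 with hairpin 2, and the difference between them was 0.62 (95% interval 0.31 to 0.92, limma adjusted p = 0.224). Cnn1 was at 0.81 and 0.42, with a difference of 0.39 (95% interval 0.08 to 0.69, limma adjusted p = 0.427). Myl9 went the other way, at 0.28 and 0.73, with a difference of -0.44 (95% interval -0.72 to -0.17, limma adjusted p = 0.311). None of these 3 was called. Acta2 and Myl9 were called between the hairpins where probe sets were averaged (0.59 and -0.59) or median polished (0.76 and -0.60), and Tagln was not. With a stricter filter on dim probe sets the difference was only 0.08 for Acta2 and -0.48 for Myl9, neither called.

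Ccn2, a known YAP and SRF target, was at -0.07 with hairpin 1 and 0.31 with hairpin 2, with a difference of -0.38 (95% interval -0.60 to -0.16, limma adjusted p = 0.291). Acta1 had a difference of 0.34 (95% interval 0.11 to 0.57) and Fhl2 one of -0.25 (95% interval -0.48 to -0.02), and neither was called. Parva and Lima1 were close in both hairpins, with 0.77 and 0.81 for Parva and 0.99 and 0.94 for Lima1. The interval of the Lima1 difference ran from -0.20 to 0.30, and that of Parva from -0.26 to 0.18.

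The other members that rose differed from luciferase by like amounts or by less with one hairpin, and none of them was called between the hairpins. Fhl1 was at 0.76 with hairpin 1 and 0.99 with hairpin 2, with a difference of -0.23 whose interval ran from -0.47 to 0.00 (limma adjusted p = 0.581). Testin and moesin stood somewhat higher with hairpin 1. Tes was at 0.61 and 0.41 and Msn at 0.57 and 0.37. The interval of the difference ran from -0.02 to 0.42 for Tes and from -0.03 to 0.42 for Msn. The calponin Cnn2 was at 0.44 and 0.51, vinculin (Vcl) at 0.43 and 0.51, and Ccn1 at 0.35 and 0.29, a pair of values of which neither was called on its own. Among members not called against luciferase, Flna was at 0.10 with hairpin 1 and 0.31 with hairpin 2, with arrays of 10.91 to 11.09 with luciferase, 11.15 and 11.09 with hairpin 1, and 11.31 and 11.35 with hairpin 2. Its hairpin 2 arrays lay above all the others, and the interval of the difference between the hairpins ran from -0.44 to 0.02. Csrp1 was at 0.33 and 0.17 and Ezr at 0.28 and 0.12, with intervals of the difference that included 0.

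**Figure D4:**
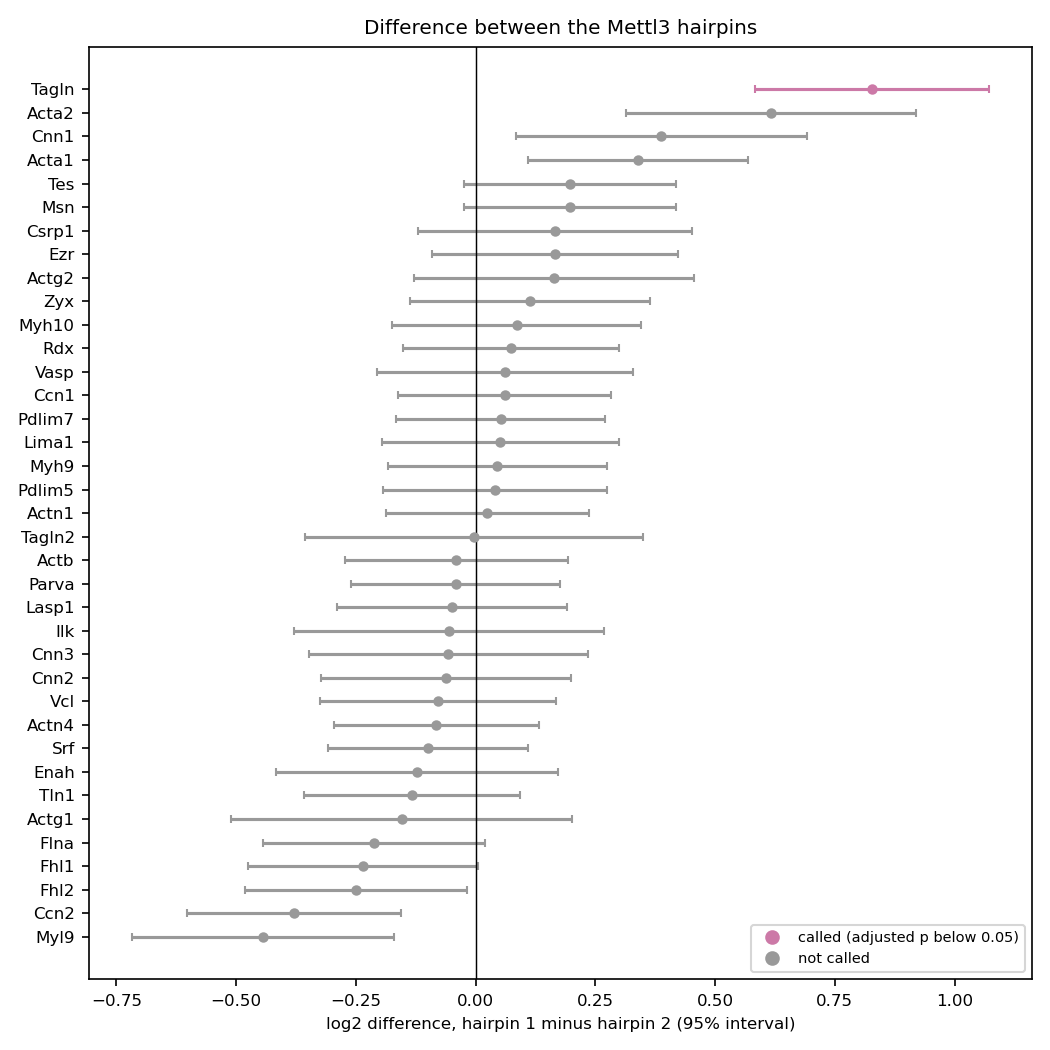
Log2 difference of hairpin 1 minus hairpin 2 for the 37 members in order of size, with bars for the 95% interval of the limma fit and called members in colour. Tagln (0.83) is the 1 called member, followed by Acta2 (0.62), and Myl9 (-0.44) lies at the other end.

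Other genes of the same machinery were examined in 3 lists. As background for each list, 5.53% of all genes were called higher and 2.37% lower in the mean of both hairpins. Tropomyosins, which lie along actin filaments, and caldesmon, which blocks myosin on them, gave 3 of 5 called higher and 0 lower in the mean of both hairpins, with a median of 0.49. Cald1 was higher by 0.97, Tpm1 by 0.94 and Tpm4 by 0.49, while Tpm2 (0.24) and Tpm3 (0.06) were not called. Rises of this group too were known from earlier results.

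Of 20 integrins and adhesion proteins, 3 rose and 1 fell, with a median of 0.01. The fibronectin and vitronectin receptor subunit Itgav rose by 0.47, the kindlin Fermt1 by 0.43 and the integrin subunit Itgb5 by 0.34. Tensin 1 (Tns1), which binds actin at adhesions, fell by 0.64, from 8.65 to 8.84 with luciferase to 7.98 to 8.14 with the hairpins.

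Of 14 YAP and TEAD genes, 1 rose, the angiomotin Amotl1 (0.32), and 0 fell, with a median of 0.08. A count of 1 in 14 is near the 5.53% of all genes called higher. Ankrd1, a common YAP target, was at -0.33 and not called.

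**Figure D5:**
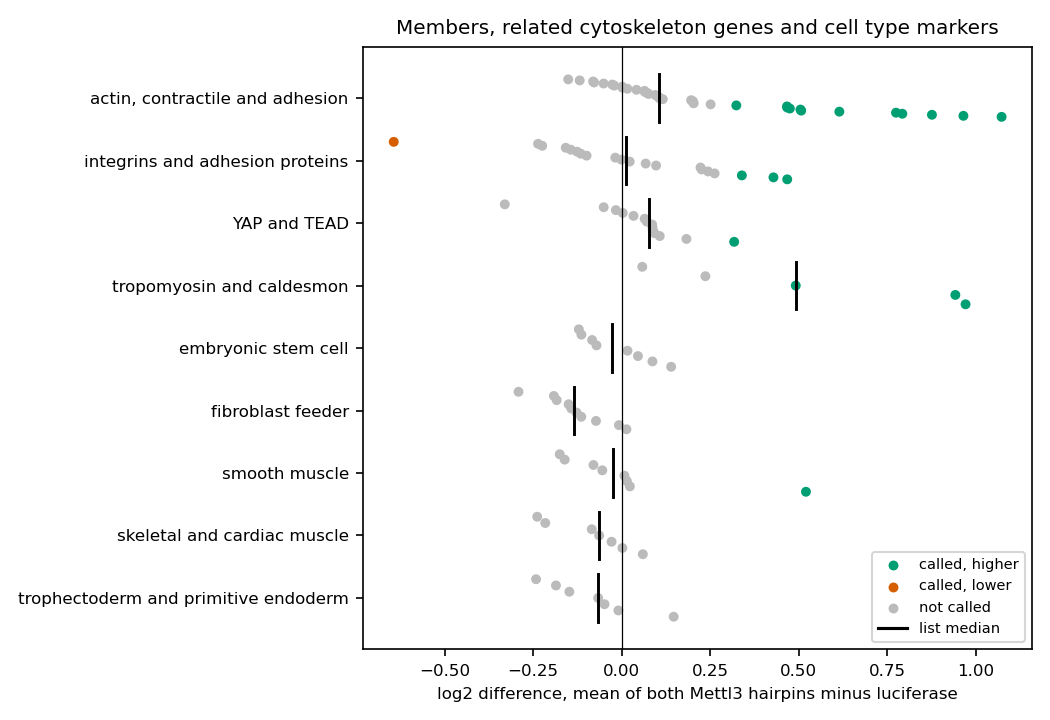
Log2 difference of the mean of both hairpins minus luciferase for the genes of each list, 1 point per gene, coloured where called higher or lower, with a bar for the median of each list. The medians run from -0.13 for fibroblast feeder markers to 0.49 for tropomyosin and caldesmon.

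Markers of other cells that could carry these genes were measured beside them, in the mean of both hairpins. There 5.53% of all genes were called higher and 2.37% lower. Of 10 tested fibroblast feeder markers 0 were called, with 0 higher and 2 lower at an unadjusted p below 0.05 in limma. Their mean level was 7.30 to 7.35 with luciferase, 7.16 to 7.32 with hairpin 1 and 7.16 to 7.17 with hairpin 2. Lum and S100a4 had 0 kept probe sets. Of 8 smooth muscle markers 1 rose, Synpo2 (0.52), an actin-binding protein, and the mean level was 7.55 to 7.61, 7.55 to 7.60 and 7.59 to 7.64 in the 3 groups. The median of the 8 differences was -0.02. The remaining 7 were not called, with Myh11 at 0.02, Des at 0.01, Smtn at 0.01, Lmod1 at -0.08, Mylk at -0.16, Itga8 at -0.18 and Myocd at -0.05. Of 7 skeletal and cardiac muscle markers 0 were called, with 0 higher and 1 lower at an unadjusted p below 0.05 in limma, and mean levels of 7.81 to 7.85, 7.66 to 7.77 and 7.73 to 7.80. Of 7 trophectoderm and primitive endoderm markers 0 were called, with 0 higher and 2 lower at an unadjusted p below 0.05 in limma. Their mean levels were 7.63 to 7.72, 7.53 to 7.58 and 7.64 to 7.67. The part that other cell types take in the differences of the members was not tested beyond these levels.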

How the data were processed

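RNA of 7 samples was measured on Affymetrix mouse exon arrays. The authors deposited log2 expression values of 1201338 probe sets per array, made with RMA and R 2.11.1 per the submitters' processing notes. Their probe set definition, genome build and filters were not stated in any source used here. Scan dates were not given either, so scan batches were not examined. RMA brings arrays to 1 distribution, which would hide a shift of most transcripts.

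Symbols came from the platform annotation and were updated through RefSeq synonyms (GRCm38.p6). Cyr61 probe sets count as Ccn1 and Ctgf probe sets as Ccn2. The members had 744 probe sets with exactly 1 symbol, of which 702 had a mean over the arrays above 6.02, the median of all probe sets, and were kept. Gene values are medians of kept probe sets, with at least 3 required (16353 genes, 229811 probe sets). A limma model (version 3.58.1, lmFit and eBayes, R 4.3.3) with 1 mean per group was fitted to all 7 arrays, with 4 residual degrees of freedom. Calls have a Benjamini-Hochberg adjusted p below 0.05 over all genes. The fit was tested on simulated data with independent noise (16353 genes, both hairpins against luciferase). It called 100% of 200 genes changed by 1, and unchanged genes made up 7.41% of its calls. Called members other than Acta2 differed by less than 1, and smaller changes were not simulated.

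The members and lists were chosen with earlier results of these data known. All members are named. Every array is given for the 8 highest rises and the 4 largest falls among called members (none fell), for members called between the hairpins, and for Acta2, Tagln, Parva, Actb, Actg1 and Srf. Of other cytoskeleton lists the 3 largest called differences are named, or the 2 largest where none was called; other list genes were named after their values were seen. A further list is not reported here. Alternatives were other filters, summaries, normalizations and spread models, a replicate block and leaving out arrays.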

Additional observations from a re-analysis of the deposited data

Results flagged for a closer look

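Tagln was the 1 member called between the hairpins. Its lower value with hairpin 2 was known when the members were chosen, so its p is not independent evidence, and the call was lost in 17 of 20 alternatives, among them leaving out any 1 array. Hairpin 1 exceeded hairpin 2 by 0.83 on the log2 scale (95% interval 0.58 to 1.07, limma adjusted p = 0.0438), with hairpin 1 arrays at 8.31 and 8.08 and hairpin 2 arrays at 7.43 and 7.31. Over the alternatives the value ran from 0.23 to 0.94 and the adjusted p from 0.018 to 0.861. The cause was not tested. No group held 4 or more arrays, so single arrays could not be set against the others of their group.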

How the results depend on the processing

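In none of the 59 alternative counts against luciferase was a member called lower. Of the 12 calls of both hairpins, Acta2, Fhl1, Lima1, Msn and Parva were lost in none of the 19 alternatives, and the other 7 in 1 or more. Ccn1 was lost in 14. Cnn2 was lost in 4, among them without luciferase replicate 1 (0.47), Myl9 and Vcl in 2 each, and Cnn1, Tagln and Tes in 1 each.

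The share of all genes called moved with the settings too and is given in brackets for most of them. In the fit as reported it was 7.9% for both hairpins, 5.89% for hairpin 1, 3.79% for hairpin 2 and 0.104% between the hairpins. Without a filter on dim probe sets the members called were 7 for both hairpins (2.42%), 6 for hairpin 1 (1.6%), 4 for hairpin 2 (0.46%) and 0 between the hairpins (0%). With a stricter filter they were 13 for hairpin 2 (8.74%) and 0 between the hairpins (0.277%). With the filter applied per group they were 0 between the hairpins (0.0358%). With 1 probe set sufficing they were 5 for hairpin 2 (1.67%) and 0 between the hairpins (0.00502%). With the mean of probe sets they were 14 for hairpin 2 (9.94%) and 2 between the hairpins (0.483%). With median polish they were 13 (8.8%) and 2 (0.465%). Between the hairpins these were Acta2, higher with hairpin 1, and Myl9, lower. Only the groups compared gave 0 between the hairpins (0.0122%). Leaving out the pair of arrays set apart by the second component, chosen after seeing the data, gave 6 for hairpin 1, 5 for hairpin 2 and 0 between the hairpins. Leaving out 1 array at a time gave 9 to 11 for both hairpins, 7 to 9 for hairpin 1, 3 to 7 for hairpin 2 and 0 to 0 between the hairpins. In such fits a group left with 1 array is assumed to vary like the others, so no share of all genes is given where that occurs. Leaving out a luciferase array leaves no group with 1 array, and the share of all genes called fell there too. Without luciferase replicate 1, 2 and 3 it was 3.9%, 5.54% and 5% for both hairpins. It was 2.81%, 4.2% and 4.02% for hairpin 1, and 1.5%, 2.64% and 2.1% for hairpin 2. The cause of these changes was not tested.

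Deviations from the group mean in arrays with the same replicate number had correlations of -0.26 to 0.08. In a group of 2 arrays these deviations mirror each other, so whether the numbers pair the samples cannot be told from them. With the replicate number as a block the counts were 9 for both hairpins, 8 for hairpin 1, 5 for hairpin 2 and 0 between the hairpins. The shares of all genes called there were 3.3%, 2.81%, 1.27% and 0.0183%. With the replicate numbers crossed as a block, chosen after seeing the data, the counts were 8, 8, 4 and 0, and the shares 3.31%, 2.38%, 0.923% and 0%. No difference called by the fit as reported changed sign in an alternative. Pdlim7, which only alternatives called (0.21 to 0.30 for both hairpins), lay marginally below 0 without a filter on dim probe sets. Signal close to background limits the dim members, since Acta2 kept 8 of its 11 probe sets and Tagln 5 of 7.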
